A study of Mus musculus with 6 samples.

Results

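Kruppel-like factors (KLFs) are transcription factors that bind GC-rich and CACCC-containing DNA through 3 zinc fingers. The 9 described here, Klf2, Klf3, Klf4, Klf5, Klf6, Klf7, Klf9, Klf10 and Klf13, were taken by name, as the features whose platform annotation gives exactly one of these symbols. Each had 1 feature on the array, so they make up 9 of the 19937 genes that a feature names alone. In mouse embryonic stem cells (ESCs) Klf2, Klf4 and Klf5 sustain self-renewal with overlapping roles, and Klf4 is known as a target of STAT3 downstream of leukaemia inhibitory factor (LIF). Klf6 and Klf7 are activators expressed in many tissues, and Klf3, Klf9, Klf10 and Klf13 act mainly as repressors that recruit CtBP or Sin3 complexes.

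All 6 arrays came from C57Bl/6 ESCs that stably carry GRgp-Y118F, a chimera of the receptor for granulocyte colony-stimulating factor (GCSF) and gp130, the signalling subunit shared by the LIF receptor. The groups, of 2 arrays each, were cells given LIF with 1 uM PD0325901, an inhibitor of the ERK-activating kinase MEK (LIF/PD), cells given GCSF, and untreated controls. Treatment lasted 1 h after 6 h without serum; the sources used here do not state how the controls were kept before harvest. The labels describe 1 engineered line and give no separate cultures for the 2 arrays of a group. The p-values below therefore set each difference only against the spread between these arrays, which may be technical. That spread is estimated partly from other features. Values are log2 intensities, a difference of 1 being a doubling, and a difference was called at an adjusted p under 0.05 over all 16912 features tested with limma. A level is specific to its feature, so levels are compared between groups and not between genes.

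Of 9 markers of embryonic stem cells, all lay above the intensity filter of 6.7, with means of 9.21 to 13.7. Of 8 fibroblast or feeder markers 7 also lay above it, and their summed log2 levels were 75.61 to 75.84 in the LIF/PD arrays, 75.85 to 75.97 in the GCSF arrays and 75.7 to 76.02 in the controls. Among them Col3a1 was called higher under GCSF, by 0.29 ± 0.05 (a call made in 4 of 15 alternatives), and the part of other cells in any result was not tested. Other called markers were Tdgf1 (0.30 ± 0.03) and Fgf4 (0.29 ± 0.03, called in 14 of 15) of the stem cell list and Pax6 (0.54 ± 0.07, called in 14 of 15) of the neuroectoderm list, all higher under GCSF than in control, and Tdgf1 (-0.17 ± 0.03, called in 4 of 15) and Utf1 (0.23 ± 0.03, called in 10 of 15) for LIF/PD against GCSF. In the primitive endoderm, trophoblast and mesoderm lists, with 5, 6 and 2 tested markers, 0 were called by limma in any comparison. Over all features 1.17% were called for GCSF against control, 0.065% for LIF/PD against control and 0.846% for LIF/PD against GCSF. An unadjusted limma p under 0.05 was reached by 0, 4 and 0 for GCSF against control (12.1% of all features). For LIF/PD against control 2, 0 and 0 did (6.59%), and for LIF/PD against GCSF 1, 3 and 0 (11.8%). The trophoblast list had a median difference of -0.15 for GCSF against control. Of 7 endoderm markers 5 lay above the filter, with means up to 9.83, and of 7 trophoblast markers 6 did, with means up to 11.8. Below it lay Sox17 and Sox7 of endoderm, Elf5 of trophoblast, Zic1 of neuroectoderm, and Mesp1 and Kdr of mesoderm. Lum of the fibroblast list, and Gata1, Krt5 and Krt14 of blood and epithelium, also lay below it. In bulk arrays, fewer cells of a type and less RNA per cell cannot be told apart. A check on an ERK output gene went against the labels. Dusp6, a phosphatase gene switched on by ERK, stood at 10.51 and 10.54 in arrays labelled LIF/PD, at 8.93 and 8.94 in those labelled GCSF, and at 10.47 and 10.52 in controls. The MEK inhibitor would lower such a gene, yet it was low in the arrays labelled GCSF. Groups keep their labels below, and a direction given for a group means the arrays so labelled.

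Of the 9 KLF transcripts 3 rose under GCSF, namely Klf4 to 1.89 times, Klf5 to 1.48 times and Klf6 to 1.4 times the control level, and none fell. Under LIF/PD Klf5 was the 1 of the 9 that passed (1.35 times control), and Klf4 and Klf6 were lower under LIF/PD than under GCSF. Over all features tested, 0.804% were called higher and 0.367% lower for GCSF against control, 0.0591% higher and 0.00591% lower for LIF/PD against control, and 0.402% higher and 0.443% lower for LIF/PD against GCSF. The median log2 difference of the 9 was 0.24 for GCSF against control, 0.09 for LIF/PD against control and -0.13 for LIF/PD against GCSF, where the medians of all features were 0.008, 0.012 and 0.004. The arrays of the groups did not overlap, with GCSF higher, for 6 of the 9 against control and with GCSF lower for 0, where 23.7% and 18.2% of all features did so. LIF/PD arrays lay wholly above control for 4 (Klf4, Klf5, Klf7 and Klf10) and wholly below for 1 (Klf3), against 24% and 14.4% of all features. They lay wholly below GCSF arrays for 7 of the 9 and wholly above for 0, against 19.1% and 22.4% of all features. At an unadjusted p under 0.05 stood 6 of the 9 for GCSF against control, 3 for LIF/PD against control and 6 for LIF/PD against GCSF, where 12.1%, 6.59% and 11.8% of all features did. Both comparisons against control use the same 2 control arrays, and the 9 were chosen with earlier results of these data known.

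**Figure D1:**
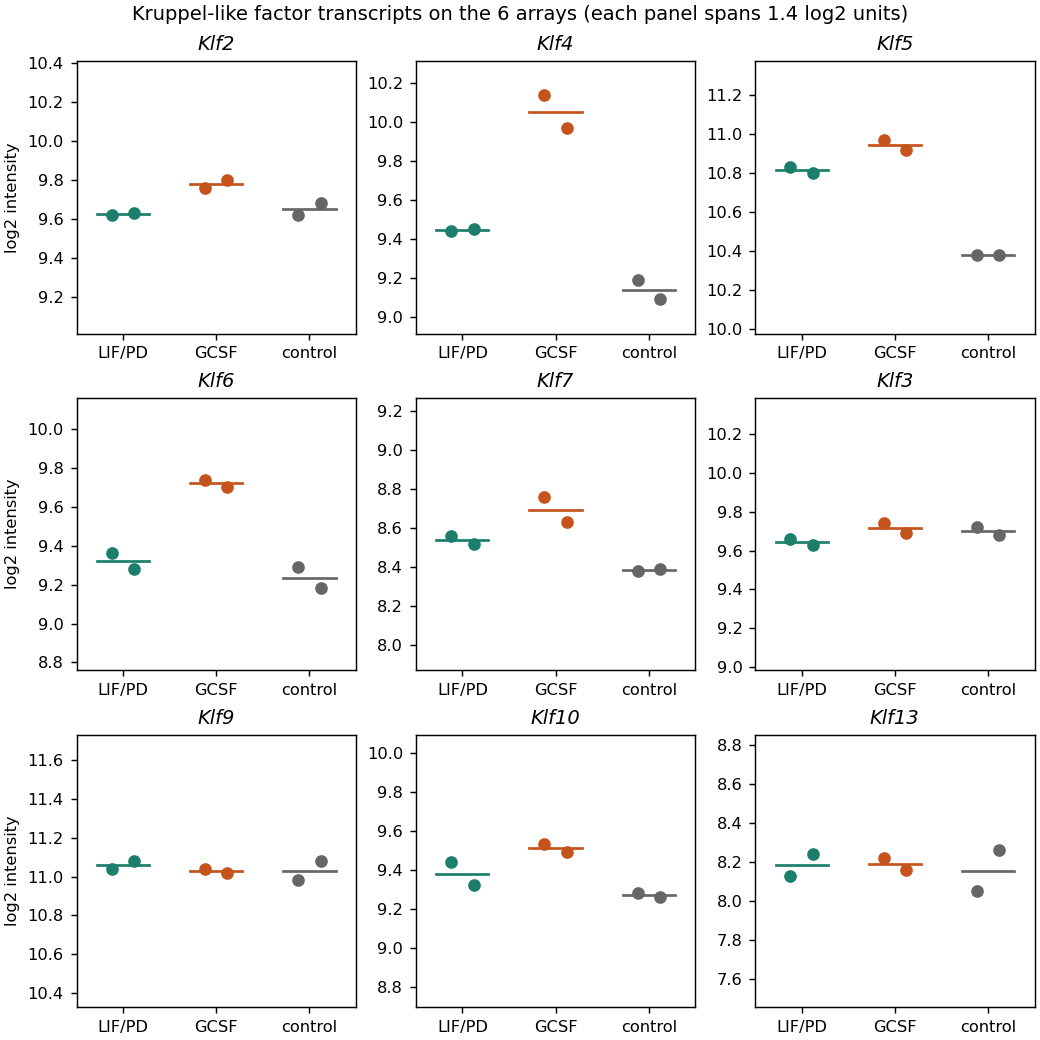
Log2 intensity (vertical axes, each spanning 1.4 units) of the 9 Kruppel-like factor transcripts in LIF/PD, GCSF and control arrays; points are single arrays and bars are group means. Klf4 ran from 9.09 to 10.14 over the 6 arrays, while Klf9 stayed between 10.98 and 11.08.

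Promoter sequence is shown because KLF and SP proteins bind GC boxes and STAT3 binds a palindromic site. RefSeq start sites of build GRCm38.p6 matched 7 of the 9 members, and Klf5 and Klf10 had no entry in the table used. The 250 bases upstream of each start are shown for Klf4 and Klf6, which rose under GCSF, and for Klf9, which was not called and was the one of the 7 with a STAT-type match. Capitals mark GC boxes (GGGCGG on either strand) and the palindromic STAT pattern TTCNNNGAA. The windows are Klf4 on the minus strand at chr4:55532476-55532725, Klf6 on the plus strand at chr13:5861239-5861488 and Klf9 on the plus strand at chr19:23140976-23141225.
Klf4: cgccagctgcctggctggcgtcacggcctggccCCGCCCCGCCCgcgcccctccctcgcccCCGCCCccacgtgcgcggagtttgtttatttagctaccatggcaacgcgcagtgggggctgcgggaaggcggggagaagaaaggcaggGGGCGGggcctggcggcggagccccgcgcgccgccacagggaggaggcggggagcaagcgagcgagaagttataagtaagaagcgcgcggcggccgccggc
Klf6: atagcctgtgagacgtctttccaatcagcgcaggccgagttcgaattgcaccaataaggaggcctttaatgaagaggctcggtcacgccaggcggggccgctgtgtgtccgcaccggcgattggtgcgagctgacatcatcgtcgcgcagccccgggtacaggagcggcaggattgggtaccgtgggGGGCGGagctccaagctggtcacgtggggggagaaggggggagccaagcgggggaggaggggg
Klf9: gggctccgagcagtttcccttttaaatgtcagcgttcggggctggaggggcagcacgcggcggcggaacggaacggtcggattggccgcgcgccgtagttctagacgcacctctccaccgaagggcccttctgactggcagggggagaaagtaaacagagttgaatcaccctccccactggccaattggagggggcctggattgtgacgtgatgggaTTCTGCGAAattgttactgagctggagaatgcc

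The Klf4 window held 4 GC boxes, the farthest beginning 217 and the nearest 101 bases before the start, and the Klf6 window held 1, at 63 bases. Klf9 held 0. Of the members that were not called, Klf3 held 6, Klf13 held 3, Klf2 held 2 and Klf7 held 1. Over all 32851 upstream windows in the table, 32.7% held at least 1 GC box. The KLF box CCNCNCCC, which can overlap a GC box, was matched on either strand at 9 positions upstream of Klf4 and 2 of Klf6. Of the members that were not called, Klf3 had 10 matches, Klf7 8, Klf13 5, Klf2 4 and Klf9 0. At least 1 was held by 45.9% of all windows. TTCNNNGAA was found in the Klf9 window and in none of the other 6, where 7.02% of all windows hold it, and the cyclic AMP element TGACGTCA was in none of the 7, where 1.55% hold it. GC content was 74% for Klf4 and 64.8% for Klf6, against a median of 52.4% over all windows. For the members that were not called it was 78.4% for Klf3, 71.6% for Klf13, 71.2% for Klf2, 59.6% for Klf9 and 59.2% for Klf7. A match describes these letters only, and a window without one says nothing of sites elsewhere.

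Klf4, one of the factors that reprogram fibroblasts to pluripotency, had the widest range of the 9. Its values were 9.44 and 9.45 under LIF/PD, 10.14 and 9.97 under GCSF, and 9.19 and 9.09 in controls. The 3 groups did not overlap, with GCSF highest, LIF/PD next and control lowest. The GCSF difference from control was 0.92 ± 0.06 (SE of the fit, n = 2 arrays per group, adjusted p = 0.000279), which ranked 9 among the 16912 features by size of rise. LIF/PD lay 0.62 below GCSF (-0.62 ± 0.06, adjusted p = 0.00387), a difference that ranked 15 by size of fall. LIF/PD against control gave 0.30 ± 0.06, with a 95% interval of 0.16 to 0.45, and did not pass (unadjusted p = 0.00124, adjusted p = 0.374). The GCSF call held whichever array was left out, at 0.83 to 1 log2. The call between LIF/PD and GCSF ended without LIF/PD replicate 1 (adjusted p = 0.0675) or LIF/PD replicate 2 (0.051), which also costs power, and with the median of the array's control features as a covariate (-0.53, 0.158). That median was 6.58 and 6.68 in the LIF/PD arrays, 6.84 and 6.71 in the GCSF arrays and 6.66 and 6.71 in the controls, and its part in the difference was not tested.

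Klf5, which is needed for the earliest embryonic lineages and supports ESC proliferation, was the KLF that rose under both labels. It measured 10.83 and 10.80 under LIF/PD, 10.97 and 10.92 under GCSF, and 10.38 in both controls. Every treated array lay above both controls, and the GCSF arrays lay just above the LIF/PD arrays. The rise was 0.56 ± 0.04 for GCSF (adjusted p = 0.000182) and 0.43 ± 0.04 for LIF/PD (adjusted p = 0.00791), and the LIF/PD value ranked 21 by size of rise. LIF/PD minus GCSF was -0.13 ± 0.04, with a 95% interval of -0.21 to -0.05, and did not pass (adjusted p = 0.187). Without either control array or either LIF/PD array the LIF/PD rise stayed at 0.42 to 0.45 but was not called (adjusted p = 0.0844 to 0.178), nor was it with variances fitted without an intensity trend (0.091). The GCSF rise was called with any array left out, at 0.54 to 0.58.

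Klf2, the third member of the self-renewal group, whose protein is known to be destabilised by ERK signalling, passed in no comparison. Its values were 9.62 and 9.63 under LIF/PD, 9.76 and 9.80 under GCSF, and 9.62 and 9.68 in controls. The GCSF arrays lay above all others by a small margin, and LIF/PD arrays overlapped the controls. The GCSF difference of 0.13 ± 0.04 (95% interval 0.03 to 0.23) did not pass (adjusted p = 0.267). LIF/PD differed from control by -0.03 ± 0.04 (interval -0.13 to 0.07, adjusted p = 0.945) and from GCSF by -0.16 ± 0.04 (interval -0.26 to -0.06, adjusted p = 0.168). The upper bound for Klf2 under GCSF, 0.23, lay below the lower bounds of 0.77 for Klf4 and 0.48 for Klf5. No test between these genes was made.

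Klf6, which injury and growth factors induce within the first hours in many cell types, rose under GCSF. It measured 9.36 and 9.28 under LIF/PD, 9.74 and 9.70 under GCSF, and 9.29 and 9.18 in controls. The GCSF arrays stood apart from the other 4, among which LIF/PD and control overlapped. GCSF exceeded control by 0.48 ± 0.05 (adjusted p = 0.00325), a call that held with any array left out (0.42 to 0.54). LIF/PD lay 0.09 ± 0.05 from control (interval -0.04 to 0.21, adjusted p = 0.818). LIF/PD was lower than GCSF (-0.39 ± 0.05, adjusted p = 0.0166), but this call ended without any 1 of the GCSF or LIF/PD arrays (-0.35 to -0.44, adjusted p = 0.0558 to 0.14), with the control-feature covariate (-0.44, 0.219), and without an intensity trend (0.0605). The control-feature medians are those given for Klf4.

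Klf7, known for its role in axon growth, had the same order of groups without a call. Its values were 8.56 and 8.52 under LIF/PD, 8.76 and 8.63 under GCSF, and 8.38 and 8.39 in controls. No groups overlapped, with GCSF highest and control lowest. GCSF differed from control by 0.30 ± 0.06 (interval 0.17 to 0.44), which missed the threshold (unadjusted p = 0.000809, adjusted p = 0.061, and 0.053 to 0.333 over 15 alternatives). LIF/PD differed from control by 0.15 ± 0.06 (adjusted p = 0.719) and from GCSF by -0.15 ± 0.06 (adjusted p = 0.373).

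Among the repressors, Klf10, first described as an early gene induced by TGF-beta, came nearest to a call. It measured 9.44 and 9.32 under LIF/PD, 9.53 and 9.49 under GCSF, and 9.28 and 9.26 in controls. The groups again did not overlap and ran GCSF, LIF/PD, control from high to low. The differences were 0.24 ± 0.05 for GCSF against control (interval 0.12 to 0.35, adjusted p = 0.0904), 0.10 ± 0.05 for LIF/PD against control (adjusted p = 0.781) and -0.13 ± 0.05 for LIF/PD against GCSF (adjusted p = 0.369).

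The other repressors had the smallest GCSF differences of the 9. Klf3, which binds CtBP, stood at 9.66 and 9.63 under LIF/PD, 9.74 and 9.69 under GCSF, and 9.72 and 9.68 in controls. Klf9, a glucocorticoid- and thyroid hormone-responsive gene whose upstream window held the STAT-type match, stood at 11.04 and 11.08 under LIF/PD, 11.04 and 11.02 under GCSF, and 10.98 and 11.08 in controls. Klf13, which regulates chemokine expression in T cells, stood at 8.13 and 8.24 under LIF/PD, 8.22 and 8.16 under GCSF, and 8.05 and 8.26 in controls. GCSF and control arrays overlapped for all 3, and for Klf13 the 2 controls lay 0.21 apart, wider than any distance between its group means. The GCSF differences were 0.01 ± 0.04 for Klf3 (interval -0.08 to 0.11), 0.00 ± 0.04 for Klf9 (interval -0.09 to 0.10) and 0.04 ± 0.08 for Klf13 (interval -0.14 to 0.22). The LIF/PD differences from control were -0.05 ± 0.04, 0.03 ± 0.04 and 0.03 ± 0.08 for Klf3, Klf9 and Klf13 in that order, and none passed (adjusted p = 0.862 to 0.967).

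**Figure D2:**
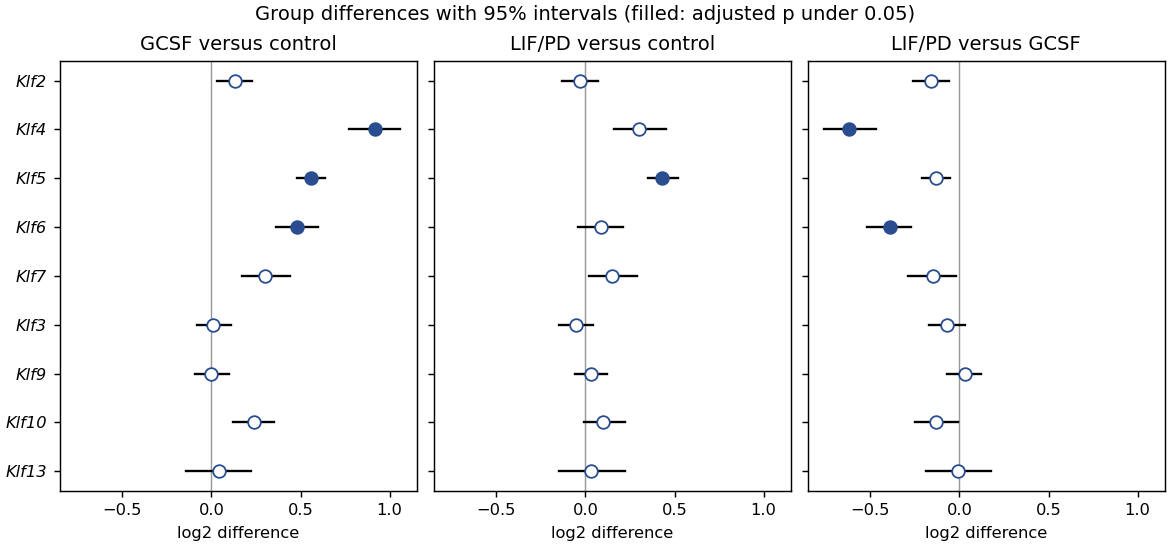
Log2 differences (horizontal axes) of the 9 transcripts in 3 comparisons, with 95% intervals from the limma fit as lines; filled points passed at an adjusted p under 0.05. Filled points are Klf4, Klf5 and Klf6 for GCSF against control, Klf5 for LIF/PD against control, and Klf4 and Klf6 for LIF/PD against GCSF.

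For the 3 called members, the nearest patterns were sought among tested features with 1 symbol. Nearness was the root mean square distance between profiles over the 6 arrays, each centred on its own mean. Features with no symbol or several were not searched. The patterns found are a description, since all points share the same 6 arrays. Nearest to Klf4 were Elobl (distance 0.0771 log2), D730005E14Rik (0.0909) and Dapp1 (0.095), of which D730005E14Rik has another feature on the array. Their differences from control were 0.81, 0.82 and 0.88 under GCSF. Under LIF/PD the same 3 differed from control by 0.30, 0.41 and 0.44. Nearest to Klf5 were Tbx20 (0.0225), the phosphatase gene Dusp1 (0.0294) and the WNT receptor gene Fzd5 (0.0493), with GCSF differences of 0.52, 0.58 and 0.56 and LIF/PD differences of 0.40, 0.40 and 0.37. Nearest to Klf6 were Slc26a9 (0.0473), Spic (0.0572) and the amino acid transporter gene Slc1a4 (0.0584), whose LIF/PD differences were 0.02, 0.06 and 0.20 beside GCSF differences of 0.38, 0.56 and 0.55.

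**Figure D3:**
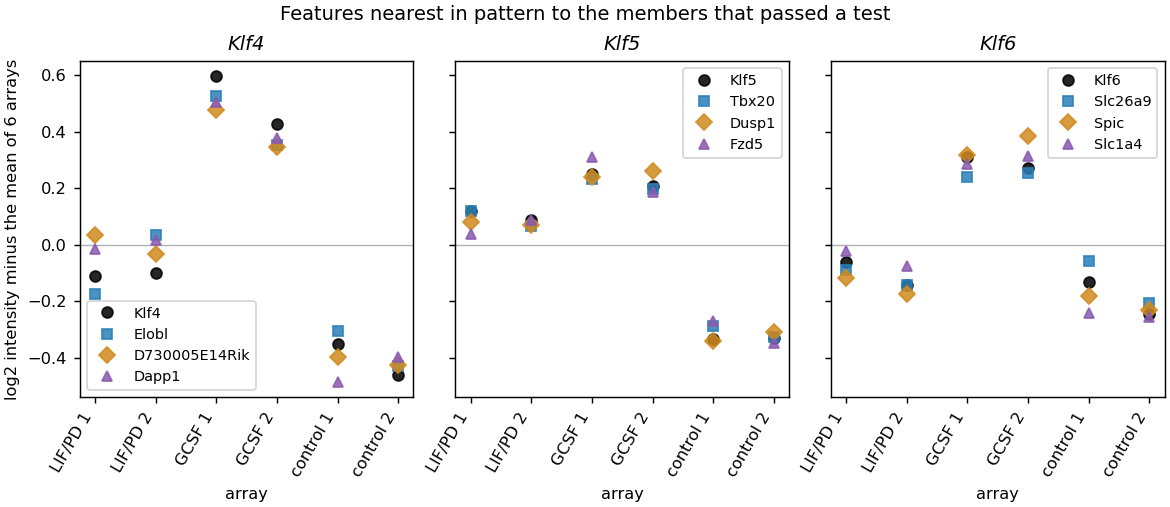
Log2 intensity minus the mean of the 6 arrays (vertical axis) for Klf4, Klf5 and Klf6 and the 3 features nearest to each, by array. The LIF/PD arrays lie close to the GCSF arrays for Klf5 and close to the controls for Klf6, and in between for Klf4.

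The rest of the KLF/SP family gave no call. Of 17 further genes, 16 were on the array under 1 symbol and 11 passed the filter, with Klf1, Klf17, Sp5, Sp7 and Sp8 below it. For GCSF against control 0 of 11 were called by limma, where 1.17% of all features were called in either direction. An unadjusted limma p under 0.05 was reached by 1 of the 11, where 12.1% of all features did. The 11 differences ran from -0.08 to 0.22 with a median of 0.06. The highest was Sp6, an SP factor of teeth and limb, at 0.22 ± 0.09 (adjusted p = 0.366). Klf11, a TGF-beta-inducible repressor related to Klf10, gave 0.12 ± 0.06, and Sp1 and Sp3, which bind GC boxes in most cells, gave 0.04 ± 0.04 and 0.06 ± 0.03. For LIF/PD against control the range was -0.04 to 0.07, and for LIF/PD against GCSF -0.19 to 0.10. In either, 0 were called and 0 had an unadjusted limma p under 0.05. Over all features 0.065% and 0.846% were called, and 6.59% and 11.8% had such a p. The difference between these 11 and the 9 members was not tested.

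Genes for KLF cofactors and for KLF protein turnover gave no call either. All 16 were tested and 0 were called by limma in any comparison. Over all features 1.17% were called for GCSF against control, 0.065% for LIF/PD against control and 0.846% for LIF/PD against GCSF. At an unadjusted p under 0.05 there was 1 for GCSF against control, 0 for LIF/PD against control and 2 for LIF/PD against GCSF. In the same order, 12.1%, 6.59% and 11.8% of all features had such a p. Ctbp1, the corepressor bound by Klf3, differed from control by 0.02 ± 0.03 under GCSF and Sin3a, the scaffold bound by Klf9, Klf10 and Klf13, by 0.00 ± 0.04. The largest GCSF difference of the list was -0.21, for the ubiquitin ligase gene Fbxo32 (adjusted p = 0.233).

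Most naive pluripotency genes that Klf2, Klf4 and Klf5 bind or regulate did not pass after 1 h. Of 18 tested, 4 rose and 1 fell under GCSF, 1 rose under LIF/PD, and 1 was higher under LIF/PD than under GCSF. Calls made up 27.8% of the list for GCSF against control, 5.56% for LIF/PD against control and 5.56% for LIF/PD against GCSF. Over all features, in the same order, 1.17%, 0.065% and 0.846% were called in either direction. An unadjusted limma p under 0.05 was reached by 9, 5 and 8 of the 18, where 12.1%, 6.59% and 11.8% of all features did. Gbx2, a homeobox gene, rose by 0.66 ± 0.08 under GCSF and 0.68 ± 0.08 under LIF/PD. Mycn (0.41 ± 0.04), the F-box gene Fbxo15 (0.35 ± 0.05) and the zinc finger gene Sall4 (0.23 ± 0.03) rose under GCSF, where the nuclear receptor gene Nr0b1 fell (-0.18 ± 0.03). Nr0b1 was the gene higher under LIF/PD than under GCSF (0.21 ± 0.03). Of the 15 alternatives, Nr0b1 was called in 5 for GCSF against control and in 6 for LIF/PD against GCSF, Fbxo15 and Sall4 in 9 each under GCSF, and Gbx2 in 14 under GCSF and 8 under LIF/PD. Nanog, the homeobox factor at the centre of the network, differed from control by 0.10 ± 0.03 under GCSF and 0.03 ± 0.03 under LIF/PD, and Esrrb by 0.04 ± 0.03 and 0.01 ± 0.03, none of them called.

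Of 12 genes of STAT3 feedback and its partners, 7 rose and 0 fell under GCSF, 4 rose under LIF/PD, and 3 were lower under LIF/PD than under GCSF. Those calls were 58.3%, 33.3% and 25% of the list, where 1.17%, 0.065% and 0.846% of all features were called in either direction. An unadjusted limma p under 0.05 was reached by 8, 7 and 7 of the 12, where 12.1%, 6.59% and 11.8% of all features did. Socs3, the feedback inhibitor of STAT3 signalling, stood at 10.42 and 10.32 under LIF/PD, 10.79 and 10.98 under GCSF, and 7.77 and 7.73 in controls. Its LIF/PD value lay below GCSF by 0.51 (-0.51 ± 0.07, adjusted p = 0.0123), while its dimmer feature differed by -0.12. That dimmer feature differed from control by 0.51 under GCSF and 0.39 under LIF/PD, where the brighter Socs3 feature gave 3.13 and 2.62. Stat3 itself and Bcl3, an IkB-related coactivator, were also lower under LIF/PD than under GCSF, at -0.37 ± 0.05 and -0.80 ± 0.05. Between these groups Socs3 was called in 12 and Stat3 in 10 of the 15 alternatives. Besides Socs3, Bcl3 (1.35 ± 0.05), the kinase gene Pim3 (0.70 ± 0.05), Stat3 (0.61 ± 0.05), the AP-1 gene Junb (0.59 ± 0.07) and the receptor genes Osmr (0.52 ± 0.06) and Lifr (0.35 ± 0.06, called in 10 of 15) rose under GCSF. Under LIF/PD Socs3 (2.62 ± 0.07), Junb (0.58 ± 0.07), Bcl3 (0.55 ± 0.05) and Pim3 (0.51 ± 0.05) rose. Of these 4, Socs3 was called with any array left out, whereas the calls of Bcl3 and Pim3 ended without either control or either LIF/PD array, and that of Junb without any 1 of the 6 arrays. The calls of Bcl3 and Pim3 also ended without an intensity trend and were made in 10 of 15 alternatives each. Junb was called in 2 of the 14 that tested it. Its call was also lost with all 6 arrays kept, under quantile normalization and with the control-feature covariate among others.

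Of 15 ERK output genes tested, 8 fell and 0 rose in the arrays labelled GCSF. The sprouty gene Spry4 (-1.83 ± 0.06), Dusp6 (-1.56 ± 0.04) and Egr1 (-1.49 ± 0.08), an immediate early factor gene whose protein also binds GC-rich sites, fell most in the list. Myc (-0.77 ± 0.04), the ephrin receptor gene Epha2 (-0.64 ± 0.05), Dusp4 (-0.55 ± 0.06), Spry1 (-0.41 ± 0.07) and the AP-1 gene Fosl1 (-0.37 ± 0.07) fell as well, Spry1 being called in 6 and Fosl1 in 4 of the 15 alternatives. Against control, 0 of 15 were called under LIF/PD by limma and 2 had an unadjusted p under 0.05, with Spry4 at 0.05 ± 0.06 and Egr1 at -0.18 ± 0.08. Compared with GCSF, 7 were higher under LIF/PD, namely Spry4 (1.88 ± 0.06), Dusp6 (1.59 ± 0.04), Egr1 (1.31 ± 0.08), Myc (0.86 ± 0.04), Dusp4 (0.59 ± 0.06), Epha2 (0.59 ± 0.05) and Spry2 (0.58 ± 0.06), of which Dusp4 and Spry2 were called in 13 of 15. Calls made up 53.3% of this list for GCSF against control, 0% for LIF/PD against control and 46.7% for LIF/PD against GCSF. Over all features, in the same order, 1.17%, 0.065% and 0.846% were called in either direction. An unadjusted limma p under 0.05 was reached by 11 of 15 for GCSF against control and 11 for LIF/PD against GCSF. Over all features 12.1% and 11.8% did so, and 6.59% for LIF/PD against control. The part of ERK output in the KLF differences was not tested.

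**Figure D4:**
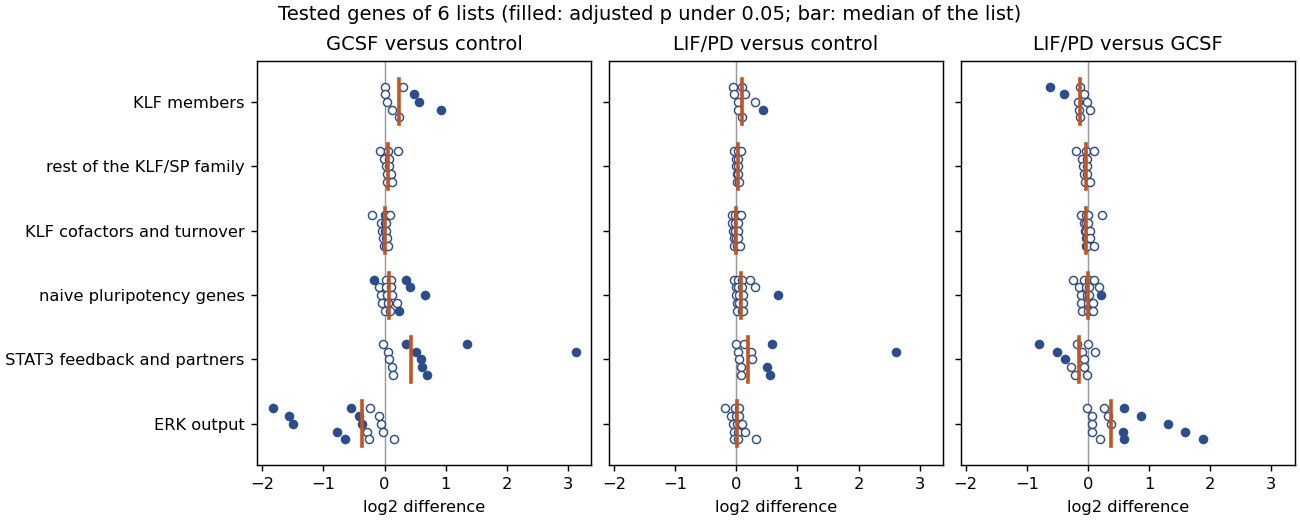
Log2 differences (horizontal axes) of the tested genes of 6 lists in 3 comparisons; each point is a gene, filled at an adjusted p under 0.05, and bars are list medians. The ERK output list has its median at -0.37 for GCSF against control and 0.02 for LIF/PD against control, and the rest of the KLF/SP family stays within -0.19 and 0.22 in all 3.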

How the data were processed

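Total RNA extracted with TRIzol was labelled with biotin at a core facility and hybridised to gene arrays, per the labels' protocols. The authors deposited 1 table of 34760 features by 6 arrays. The deposited log2 values, 2.29 to 14.5, were processed by the authors in a way not recorded, and were read as log2 intensity from their range; the log base, background correction, summarization and normalization are not given in the sources used here. Column medians were 7.11 to 7.16. Arrays have no read depth, and 2 arrays per group limit the precision. Pearson correlations between arrays were 0.9968 to 0.9977 within groups and 0.9951 to 0.9978 between groups, and 1 to 7 tested features had equal values in any pair, so no array was taken for a copy of another.

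Symbols came from the platform annotation, in which 21640 features carry 1 symbol and 1321 several, the latter left unnamed. The 6573 features with identifiers below the first annotated one were treated as array controls and left out. Features with a mean at or above the 40th percentile of the other 28187, which is 6.7, were tested, leaving 16912, among them all 9 KLF features. limma 3.58.1 (R 4.3.3) fitted 1 mean per group to all 6 arrays, with trended variances (8.4 total degrees of freedom), two-sided tests and Benjamini-Hochberg adjustment over the features tested. Errors are SEs of this fit. Listed genes were represented by their brightest feature. Full values are given for members called in any comparison, and from the other lists every called gene is named, with Socs3, Dusp6, Spry4 and Egr1 regardless, and for each called member the 3 nearest patterns. The members, lists and tests were chosen with earlier results of these data known. The 15 alternatives are described with their effects at the end.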

Additional observations from a re-analysis of the deposited data

How the results depend on the processing

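Of 405 KLF differences recomputed under the 15 alternatives (27 each), 376 kept direction and side of the threshold, 14 lost a call and 15 changed sign. The 3 KLF calls for GCSF against control were made in all 15. For LIF/PD against control the 1 KLF call became 0 without an intensity trend, and 0 to 1 with 1 array left out. For LIF/PD against GCSF the 2 KLF calls became 1 without an intensity trend, 0 with the control-feature median as a covariate, and 0 to 2 with 1 array left out. A left-out array or a covariate leaves fewer degrees of freedom. Sign changes concerned differences that were never called. With the covariate Klf9 gave -0.03 and Klf13 -0.04 for GCSF against control, and Klf13 gave 0.13 and Gbx2 -0.13 for LIF/PD against GCSF. Quantile normalization gave Klf3 0 for GCSF against control, and median centring gave Fosl1 0 for LIF/PD against control, both just past 0 before rounding. With an array left out, Klf3 ran from -0.01 to 0.04, Klf9 from -0.04 to 0.05 and Klf13 from -0.06 to 0.15 for GCSF against control. For LIF/PD against control Klf2 ran from -0.06 to 0, Klf9 from -0.02 to 0.08, Klf13 from -0.07 to 0.14, Spry4 from -0.03 to 0.12, Fosl1 from -0.09 to 0.08, Epha2 from -0.11 to 0.01 and Col3a1 from -0.02 to 0.08. For LIF/PD against GCSF Klf13 ran from -0.06 to 0.05, Gbx2 from -0.11 to 0.14 and Junb from -0.04 to 0.03. The causes were not tested.

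Counts over all features, higher and then lower, were 136 and 62 for GCSF against control. They were 66 and 33 with the covariate, 32 lower without an intensity trend, and 64 to 106 and 24 to 58 with an array left out. The 10 and 1 for LIF/PD against control became 6 and 2 with the covariate, 1 and 0 without a trend, and 1 to 6 and 0 to 1 with an array left out. The 68 and 75 for LIF/PD against GCSF became 42 and 40 with only the 2 groups fitted, 36 and 35 without a trend, 17 and 9 with the covariate, and 18 to 58 and 12 to 40 with an array left out. Of the called genes in the 5 other lists, marker lists left out, 13 of 20 for GCSF against control, 1 of 5 for LIF/PD against control and 6 of 11 for LIF/PD against GCSF were called in every alternative that tested them, which for Junb and Egr1 leaves out the stricter filter. The losses were Nr0b1, Fbxo15, Sall4, Gbx2, Lifr, Spry1 and Fosl1 in the first, Gbx2, Pim3, Bcl3 and Junb in the second, and Nr0b1, Socs3, Stat3, Dusp4 and Spry2 in the third. Among called markers the losses were Col3a1, Fgf4 and Pax6 in the first, and Tdgf1 and Utf1 in the third. The replicate numbers share no labelled origin, and deviations of same-numbered arrays correlated at 0.01 to 0.1. With the replicate number as a block the KLF calls numbered 3, 1 and 2 as before, and all features gave 125 higher and 70 lower for GCSF against control, 8 and 1 for LIF/PD against control, and 88 and 77 for LIF/PD against GCSF.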
